A study of Canis lupus familiaris with 4 samples.

Results

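The contractile genes MYH11, MYLK, CALD1 and ACTG2 were followed in canine mammary tissue. They are 4 of the 11277 genes of the count tables. They were chosen by symbol, as genes of the contractile apparatus of smooth muscle and of myoepithelial cells. The choice was made with earlier results of these data known. RNA-seq was performed on 4 libraries. T1 and T2 are mammary ductal carcinoma, and C1 and C2, the control, are non-tumor tissue taken beside it. Each library was a pool of RNA from 3 female dogs, and the 6 dogs of the study were of different breeds, had not been neutered, were aged 5 to 14 years and had received no treatment named in the labels. By the study's methods the control samples were paired with the tumor samples, so the dogs of C1 are those of T1 (pool 1), and the dogs of C2 those of T2 (pool 2). An n of 2 therefore counts pools. A pool hides the variation between single dogs, and no p-value here measures it. The p-values of the main test rest on the spread between pools, as modeled across genes.

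Smooth muscle cells contract when a rise in calcium activates the myosin light chain kinase that MYLK encodes. The kinase phosphorylates the light chains of the smooth muscle myosin, whose heavy chain is encoded by MYH11, and the myosin then pulls on actin filaments. ACTG2 encodes the gamma actin of enteric smooth muscle, and CALD1 encodes caldesmon, which binds actin and myosin and restrains their sliding. In the mammary gland this apparatus is found in the myoepithelial cells, which squeeze milk out of the alveoli in response to oxytocin, and in the smooth muscle of vessels, ducts and the nipple. Caldesmon is also made, as a shorter isoform, in cells other than muscle, and MYLK also gives a long kinase found in cells other than muscle. Counts per gene do not separate these isoforms.

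The pool 1 libraries C1 and T1 held 32352002 and 35496260 counts. Those of pool 2, C2 and T2, were shallower at 4027367 and 3236218 counts, which limits the precision. Levels are given as CPM (counts relative to the library total after TMM scaling, which corrects for library composition). All 11277 genes, the 4 contractile genes included, passed the filter on low counts. Over all genes the log2 fold changes had a median of 0.03. The 2 tissues were set against each other with the quasi-likelihood test of edgeR, and p-values were adjusted by Benjamini-Hochberg across the 11277 genes. A gene was said to pass the test at an adjusted p under 0.05, and to be called when its change was also at least 2-fold. In bulk tissue fewer cells of a type and less RNA per cell cannot be told apart.

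CALD1, MYLK and MYH11 were higher in carcinoma and ACTG2 was lower. The largest change of the 4 was that of CALD1, which rose 2.21-fold and was called. MYH11 rose 1.58-fold and MYLK 1.54-fold, while ACTG2 was 1.63-fold higher in control, and these changes passed the test but stayed under 2-fold. In all 4 genes both carcinoma libraries lay on one side of both control libraries. Among all genes tested, 4.62% were called higher (521 genes, or 800 with the pool as a replicate block) and 5.24% called lower (591, or 770 with the block). At an adjusted p alone, 6.93% were higher (782 genes, or 3812 with the block) and 6.96% lower (785, or 3422 with the block). Most of the genes tested thus passed with the block, so a pass with it sets a gene little apart. In 4 libraries that fit leaves little room to measure spread, and its small p-values rest on the spread modeled across genes. Both carcinoma libraries lay above both controls in 29.6% of all genes and below them in 28% of genes, so an order of this kind is common in the tables.

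**Figure D1:**
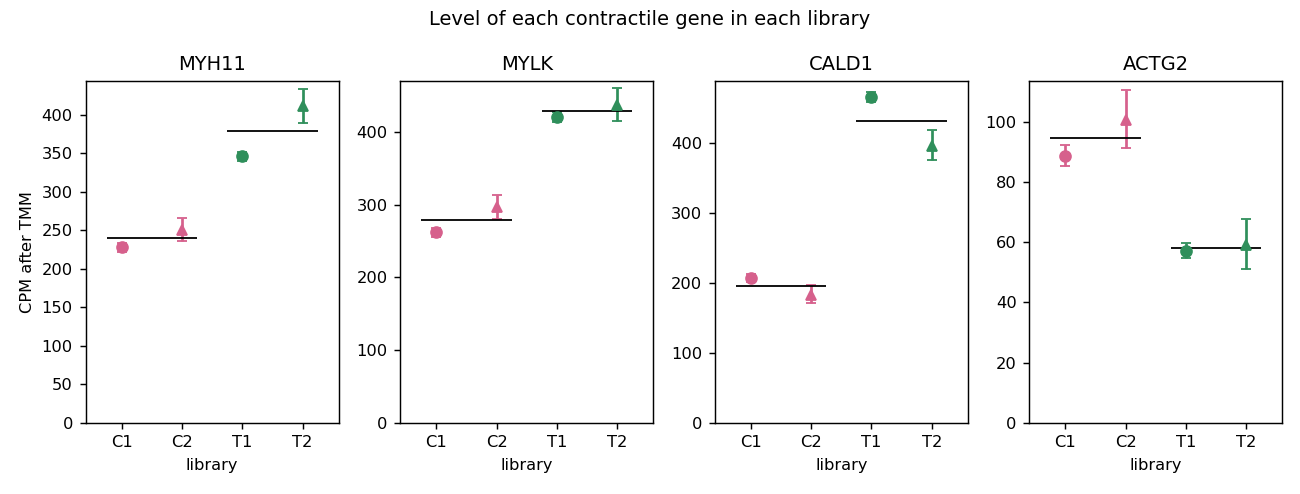
CPM (y axis, from 0, with its own scale in each panel) of MYH11, MYLK, CALD1 and ACTG2 in each library (x axis), with pink control and green carcinoma symbols that are round for pool 1 and triangular for pool 2, with 95% counting intervals as bars and group means as lines. CALD1 went from 195 to 432 CPM on average and ACTG2 from 94.7 to 58.0 CPM.

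CALD1 was 207 CPM in C1 and 184 CPM in C2, against 467 CPM in T1 and 397 CPM in T2. Both carcinoma libraries were high, and the gap between the groups exceeded the spread within either. The mean of the carcinoma libraries was 432 ± 49.6 CPM (SD, n = 2) and that of the controls 195 ± 16.7 CPM, with a log2 fold change of 1.14 (standard error 0.14, 95% interval 0.79 to 1.50, edgeR adjusted p = 0.00848). Within the pools the log2 ratio of carcinoma to control was 1.17 in pool 1 and 1.11 in pool 2. Without T1 the log2 fold change was 0.98 (adjusted p = 0.0243), just under the 2-fold limit of a call. The adjusted p of CALD1 was 0.0257 or less in every alternative fit, leaving out each library included.

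MYH11 was 228 CPM in C1 and 251 CPM in C2, against 346 CPM in T1 and 411 CPM in T2. The groups did not overlap, and pool 2 was the higher pool in both tissues. The mean of the carcinoma libraries was 378 ± 46.0 CPM (SD, n = 2) and that of the controls 239 ± 16.5 CPM, with a log2 fold change of 0.66 (standard error 0.14, 95% interval 0.31 to 1.01, edgeR adjusted p = 0.0385). In RefSeq (assembly UU_Cfam_GSD_1.0, which need not be the build of the tables) the span of MYH11 overlaps that of NDE1, a gene of the dynein pathway. Reads of the shared stretch may have been left uncounted or given to either gene, depending on the strand and counting settings used. NDE1 was 11.6 CPM in both controls and 13.0 and 12.8 CPM in T1 and T2, with a log2 fold change of 0.16 (edgeR adjusted p = 0.702).

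MYLK was 262 CPM in C1 and 296 CPM in C2, against 420 CPM in T1 and 437 CPM in T2. The carcinoma libraries lay close together and above both controls. The mean of the carcinoma libraries was 429 ± 11.6 CPM (SD, n = 2) and that of the controls 279 ± 24.4 CPM, with a log2 fold change of 0.62 (standard error 0.12, 95% interval 0.32 to 0.92, edgeR adjusted p = 0.0308). In RefSeq, 2 long noncoding RNA genes overlap the span of MYLK, and neither is named in the tables.

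ACTG2 was 88.8 CPM in C1 and 101 CPM in C2, against 57.2 CPM in T1 and 58.9 CPM in T2. It was the gene with the opposite direction, and both carcinoma libraries were low. The mean of the carcinoma libraries was 58.0 ± 1.21 CPM (SD, n = 2) and that of the controls 94.7 ± 8.37 CPM, with a log2 fold change of −0.70 (standard error 0.12, 95% interval −1.02 to −0.39, edgeR adjusted p = 0.0233). Its smallest count was 198, in T2, where the exact Poisson 95% interval ran from 51.0 to 67.7 CPM, still under both control libraries. That interval, like the others of single libraries, covers counting error only.

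Whether MYH11, MYLK and ACTG2 passed the test depended on the number of libraries and on the scaling. When 1 library was left out, whichever it was, their adjusted p rose above 0.05, to between 0.0651 and 0.216 for MYH11, 0.0569 and 0.220 for MYLK, and 0.0522 and 0.0968 for ACTG2. With library totals in place of TMM the adjusted p was 0.0895 for MYH11, 0.0820 for MYLK and 0.0786 for ACTG2. Each of these genes passed in 6 of the 11 alternative fits. With DESeq2 the adjusted p was 0.00172 for MYH11, 0.00147 for MYLK and 0.00495 for ACTG2. With RLE factors in place of TMM edgeR gave 0.0406, 0.0376 and 0.0222, and all passed with the replicate block too. The direction of each of the 4 genes was the same in all 11 alternative fits. Of these, the fit without the filter repeats the main fit, because every gene had passed the filter. With 2 libraries a tissue, the smallest two-sided p of an exact permutation test is 0.33, so these tests rest on the spread that edgeR models across genes.

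The pools also differed from each other, and CALD1 did so in the opposite direction to the other genes. On the log2 scale CALD1 in pool 2 was lower than in pool 1 by −0.17 in control and by −0.23 in carcinoma. MYH11 was higher in pool 2 by 0.14 in control and 0.25 in carcinoma. The offset of MYLK was 0.18 and 0.06, and that of ACTG2 was 0.18 and 0.04. In control the 95% counting intervals of C1 and C2 lay apart for MYH11 (222 to 233 and 236 to 266 CPM), MYLK (256 to 268 and 280 to 313 CPM) and CALD1 (202 to 213 and 171 to 197 CPM). Those of ACTG2 overlapped (85.4 to 92.2 and 91.4 to 111 CPM). In carcinoma the intervals of T1 and T2 lay apart for MYH11 (340 to 352 and 389 to 433 CPM) and CALD1 (460 to 474 and 376 to 419 CPM). They overlapped for MYLK (414 to 427 and 415 to 460 CPM) and ACTG2 (54.7 to 59.7 and 51.0 to 67.7 CPM). The pools hold different dogs, and the intervals do not cover variation between dogs.

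The genes were also set against each other inside each library, where the ratio of a pair does not depend on the scaling. MYH11 and MYLK kept nearly the same ratio. The log2 ratio of MYH11 to MYLK was −0.20 and −0.24 in C1 and C2 and −0.28 and −0.09 in T1 and T2, with overlapping groups and a mean difference of 0.04 between carcinoma and control. The myosin and its kinase thus moved by about the same amount in these libraries, although 2 libraries a group leave a wide margin.

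Against ACTG2 the other genes gained. MYLK exceeded ACTG2 by 2.95-fold in C1 and 2.94-fold in C2, and by 7.34-fold in T1 and 7.41-fold in T2, as ratios of CPM. The log2 ratio of MYLK to ACTG2 was thus higher by 1.32 in carcinoma. The log2 ratio of MYH11 to ACTG2 was 1.36 and 1.32 in C1 and C2 and 2.59 and 2.80 in T1 and T2, a gain of 1.36. The log2 ratio of CALD1 to ACTG2 was 1.22 and 0.87 in C1 and C2 and 3.03 and 2.75 in T1 and T2, and its gain of 1.84 was the largest of the 6 pairs.

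CALD1 also gained on the myosin and its kinase. The log2 ratio of MYH11 to CALD1 changed by −0.48 and that of MYLK to CALD1 by −0.52, and both were lower in carcinoma in each pool. In 5 of the 6 pairs the carcinoma libraries lay apart from the controls, and each of these had the smallest p that the design allows (exact permutation test, two-sided, p = 0.33, adjusted p = 0.4 over the 6 pairs). For the ratios to ACTG2 this separation follows from the opposite directions of the single genes, so it adds no support to them. For MYH11 and MYLK the exact permutation test gave p = 1. The unequal change of the 4 genes is therefore a description of these libraries.

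**Figure D2:**
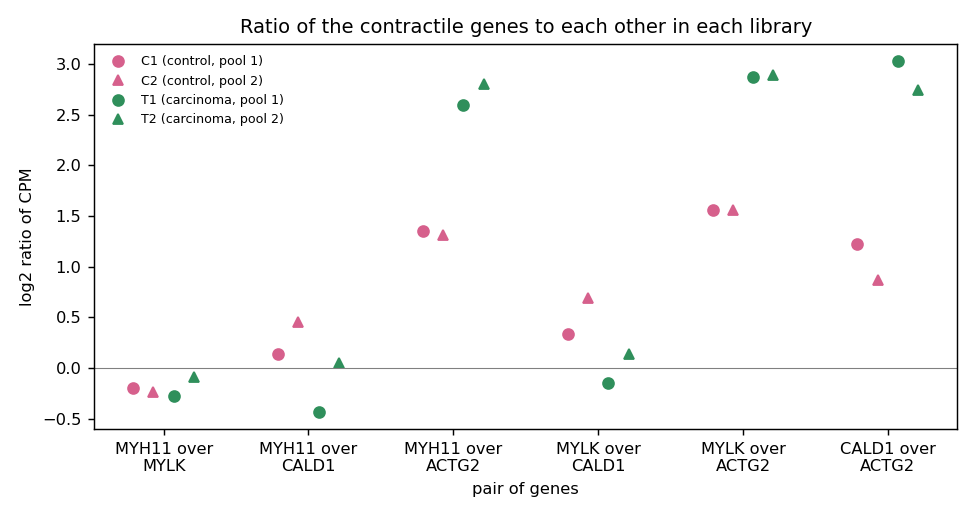
Log2 ratio of CPM (y axis) for each pair of the 4 contractile genes (x axis), 1 symbol per library, with pink control and green carcinoma symbols that are round for pool 1 and triangular for pool 2. The ratio of MYLK to ACTG2 lies at 1.56 on average in control and 2.88 in carcinoma, while that of MYH11 to MYLK stays between −0.28 and −0.09.

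Levels of different genes were compared per length, as CPM per kilobase of the length that the tables give for each gene. This length lies near the gene span with introns, at 0.884 of the RefSeq span for MYH11, 0.885 for MYLK, 1.03 for CALD1 and 1.09 for ACTG2. On this scale MYH11, MYLK and CALD1 kept their order of means in both tissues and ACTG2 changed its place. In control ACTG2 stood first at 3.44 ± 0.304 CPM per kb (SD, n = 2), followed by MYH11 at 2.34 ± 0.161, MYLK at 1.55 ± 0.135 and CALD1 at 1.01 ± 0.0864, and no neighbors in this order overlapped.

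In carcinoma MYH11 stood first at 3.70 ± 0.450 CPM per kb (SD, n = 2), apart from the rest. MYLK at 2.38 ± 0.0644, CALD1 at 2.23 ± 0.256 and ACTG2 at 2.11 ± 0.0440 CPM per kb followed, and the libraries of CALD1 overlapped those of both neighbors. ACTG2 thus went from the highest to the lowest mean of the 4. With lengths that follow exons alone the order could differ.

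Among the paralogs of the heavy chain, 1 was called lower and 1 called higher. MYH10, which encodes a nonmuscle myosin heavy chain, was 125 CPM in C1 and 128 CPM in C2, against 26.0 CPM in T1 and 24.4 CPM in T2, and was called lower with a log2 fold change of −2.32 (standard error 0.12, edgeR adjusted p = 0.00182). MYH14, another nonmuscle heavy chain gene, was 34.5 and 47.1 CPM in C1 and C2 and 93.2 and 156 CPM in T1 and T2, and was called higher with a log2 fold change of 1.62 (edgeR adjusted p = 0.0287, or 0.0600 with library totals and 0.0899 without C1). MYH9 had a log2 fold change of 0.46 and did not pass (edgeR adjusted p = 0.330), its groups overlapped, and with the replicate block it passed (edgeR adjusted p = 2.42e-14). No difference between MYH11 and a paralog was tested.

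Per length, MYH9 was above MYH11 in every library, with 6.95 to 9.58 CPM per kb in control and 8.90 to 13.9 in carcinoma. MYH10 went from 1.05 ± 0.0177 to 0.210 ± 0.00924 CPM per kb (SD, n = 2), and lay under MYH11 in every library.

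Of the other actins, ACTA1, the actin of skeletal muscle, was 77.4 CPM in C1 and 120 CPM in C2, against 1.86 CPM in T1 and 4.76 CPM in T2, a log2 fold change of −5.28 (standard error 0.49, edgeR adjusted p = 0.00450). ACTA2, the alpha actin of vascular smooth muscle and myoepithelium, was 22.5 and 39.2 CPM in C1 and C2 and 12.5 and 30.6 CPM in T1 and T2. Its groups overlapped and it did not pass, with a log2 fold change of −0.56 (95% interval −1.88 to 0.76, edgeR adjusted p = 0.528). It was lower in carcinoma within both pools, by −0.84 and −0.35 on the log2 scale, and passed with the replicate block (edgeR adjusted p = 1.93e-08). The cytoplasmic actin gene ACTG1 did not pass either (log2 fold change 0.78, edgeR adjusted p = 0.360, or 1.05e-30 with the block). The coding sequences of the actins are close to each other, so reads may be shared between these genes. HTSeq at default settings is named in the study's methods and featureCounts in the submitters' notes. How such reads were counted is therefore not settled. ACTG2 fell together with ACTA1, and the part of shared reads in its change was not tested. MYLK2, MYLK3 and MYLK4, the other kinase genes of this family, had no entry under these symbols in the count tables and were not analysed.

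**Figure D3:**
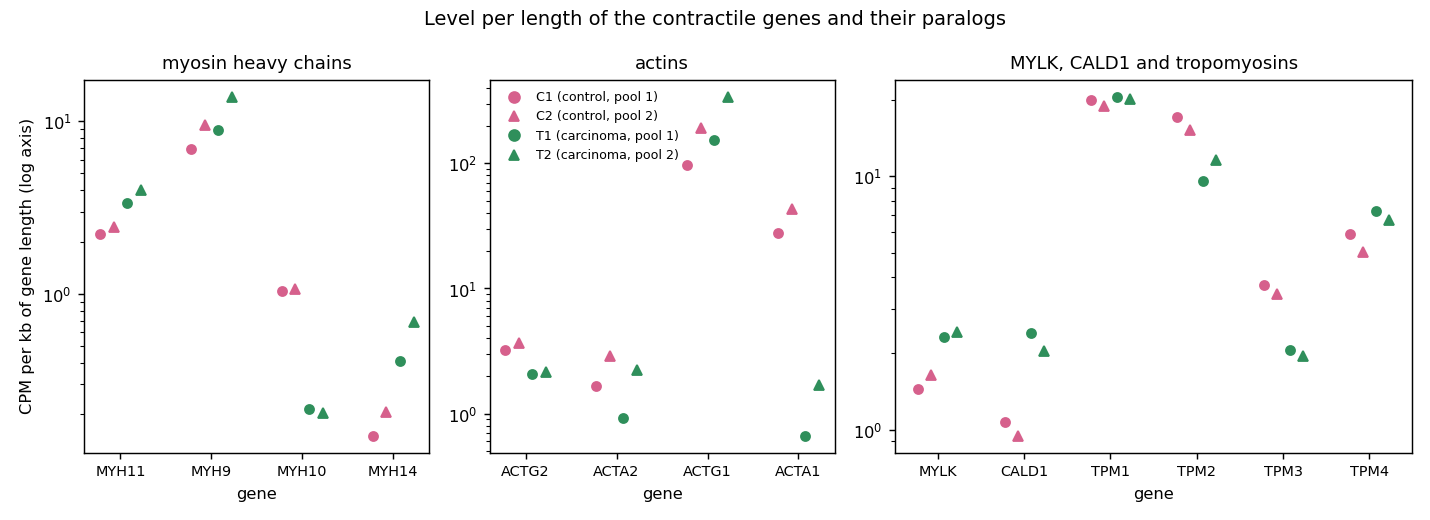
CPM per kb of gene length (y axis, log scale) in each library for MYH11 and the other myosin heavy chain genes, for ACTG2 and the other actin genes, and for MYLK, CALD1 and the tropomyosin genes (x axis), with pink control and green carcinoma symbols that are round for pool 1 and triangular for pool 2. MYH10 drops from 1.05 to 0.210 CPM per kb on average, while MYH11 goes from 2.34 to 3.70.

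Beyond these genes a list of 69 symbols of the smooth muscle contraction pathway was examined, of which 3 are second names of other entries. A total of 55 were measured. Of these, 5 were called higher, 7 called lower and 43 not called, against 4.62% and 5.24% of all genes, and their median log2 fold change was 0.04, beside 0.03 for all genes. By the adjusted p alone 10 were higher and 9 lower. The list thus moved in both directions. Without C1, 2 members were called higher, and without T2, 3. CNN1, DES, MYOCD and SRF, which mark or drive smooth muscle differentiation, had no entry under these symbols in the count tables. They could therefore not be analysed. Striated muscle markers, taken up below, summed to 1989 and 3131 CPM in control and 43.2 and 69.3 CPM in carcinoma. The part of striated muscle RNA in the falls of the pathway list was not tested.

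Receptors and channels of the pathway went both ways. EDNRA, the receptor for endothelin, was called higher at 45.9 and 38.2 CPM in C1 and C2 and 101 and 82.1 CPM in T1 and T2 (log2 fold change 1.12, edgeR adjusted p = 0.0153, or 0.0656 without T1). ADRA1A, an adrenergic receptor of smooth muscle, was 147 and 149 CPM in C1 and C2 and 39.5 and 37.5 CPM in T1 and T2, a log2 fold change of −1.94 (standard error 0.11, edgeR adjusted p = 0.00187). AGTR1, the angiotensin receptor, was called lower too (log2 fold change −3.95, edgeR adjusted p = 0.00553), with 235 and 26 counts in C1 and C2 and 17 counts and 1 count in T1 and T2.

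RYR2, a calcium release channel best known from the heart, was called lower (log2 fold change −1.46, edgeR adjusted p = 0.00465). CACNA1C, the pore of the L-type calcium channel, rose by 0.79 (edgeR adjusted p = 0.0130) and ITPR1, the receptor for inositol trisphosphate, by 0.70 (edgeR adjusted p = 0.0193) on the log2 scale, both under 2-fold. The adjusted p of CACNA1C was between 0.0599 and 0.0770 with any 1 library left out. OXTR, the oxytocin receptor of myoepithelial cells, was 4.67 and 7.65 CPM in C1 and C2 and 13.4 and 25.0 CPM in T1 and T2. The groups lay apart, but OXTR did not pass (log2 fold change 1.66, edgeR adjusted p = 0.0774), whereas with the replicate block it was called higher (log2 fold change 1.56, edgeR adjusted p = 3.12e-18). ITPR1 and OXTR were named after their values were seen.

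Among kinases and GTPase regulators, PRKG1, the cyclic GMP dependent kinase that relaxes smooth muscle, was called lower at 53.4 and 52.9 CPM in C1 and C2 and 15.8 and 11.6 CPM in T1 and T2 (log2 fold change −1.92, edgeR adjusted p = 0.00651). ARHGEF12, a guanine nucleotide exchange factor, rose by 0.74 on the log2 scale (edgeR adjusted p = 0.0131, or between 0.0590 and 0.104 with any 1 library left out). PAK1 did not pass (log2 fold change 0.64, edgeR adjusted p = 0.0830, or 8.72e-14 with the block).

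The myosin phosphatase, which reverses the action of the kinase, showed no member that passed without the replicate block. PPP1R12A had a log2 fold change of −0.48 (edgeR adjusted p = 0.124), and PPP1CB, PPP1R12B and PPP1R12C had values of −0.12, −0.08 and 0.46. At an unadjusted p under 0.05, without the fold limit, PPP1R12A alone of these 4 was lower. No share of all genes at that threshold is given here. With the block PPP1R12A (edgeR adjusted p = 7.13e-16) and PPP1R12C (0.025) passed, under 2-fold. Of the myosin light chains MYL9, the regulatory chain of smooth muscle myosin, rose from 50.7 and 60.0 CPM in C1 and C2 to 86.1 and 113 CPM in T1 and T2 (log2 fold change 0.84, edgeR adjusted p = 0.0429, or 0.0954 with library totals, 0.199 without C1 and 0.120 without T2). The light chain genes MYL12A, MYL12B and MYL6B did not pass, with log2 fold changes of −0.26, −0.04 and 0.10, and MYL12A passed with the block (edgeR adjusted p = 1.66e-05).

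No thin filament gene of the list was called by edgeR, with or without the replicate block, and the log2 fold changes of the 10 measured had a median of −0.28. At an unadjusted p under 0.05, 4 of them differed, TPM4 upward and TPM2, TPM3 and LMOD1 downward. The share of all genes at this threshold is not given here, so the count is a description only. TPM3 fell by 0.83 on the log2 scale (edgeR adjusted p = 0.0122, or 0.0629 without C1), and TPM2 (−0.63, edgeR adjusted p = 0.0527), LMOD1 (−0.90, edgeR adjusted p = 0.115) and TPM4 (0.35, edgeR adjusted p = 0.164) did not pass. With the block these passed too, with edgeR adjusted p-values of 3.07e-18 for TPM2, 1.97e-04 for LMOD1 and 6.09e-06 for TPM4. At the attachment sites of the filaments PDLIM3 was called lower (log2 fold change −1.18, edgeR adjusted p = 0.0248, or 0.0609 without C1), and without T2 its log2 fold change of −0.96 fell short of a call. ACTN1, which encodes an alpha-actinin, was called higher (log2 fold change 1.04, edgeR adjusted p = 0.0327). The call of ACTN1 was lost with the replicate block (log2 fold change 0.99), with library totals (adjusted p = 0.0695), without C1 (adjusted p = 0.127) and without T2 (log2 fold change 0.76). PDLIM5 rose by 0.70 on the log2 scale (edgeR adjusted p = 0.0311, or between 0.0512 and 0.157 with any 1 library left out). VCL, vinculin, did not pass (0.47, edgeR adjusted p = 0.0501, or 2.67e-12 with the block). CSRP1, named after its values were seen, did not pass (1.37, edgeR adjusted p = 0.102) and was called higher with the block (1.36, edgeR adjusted p = 7.20e-55).

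The transcription factor genes of the list included some of the clearer rises. MKL1, a coactivator of serum response factor, was 159 CPM in both controls and 321 and 324 CPM in T1 and T2 (log2 fold change 1.02, edgeR adjusted p = 0.00532), and its log2 fold change fell just under the limit without C1 (0.97) and without T1 (0.98). Its relative MKL2 moved in the opposite direction (log2 fold change −0.63, edgeR adjusted p = 0.0366, or 0.136 without C1, 0.110 without T1 and 0.173 without T2). TEAD1, which also binds promoters of smooth muscle genes, was called higher (log2 fold change 1.21, edgeR adjusted p = 0.00544), as was FHL2, a LIM domain cofactor (log2 fold change 1.50, edgeR adjusted p = 0.0224, or 0.127 without C1 and 0.0551 without T2). KLF4, a repressor of the smooth muscle program, was called lower (log2 fold change −2.10, standard error 0.44, edgeR adjusted p = 0.0399) and was named after its values were seen. Its counts were low, at 215 and 47 in C1 and C2 and 58 and 10 in T1 and T2.

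**Figure D4:**
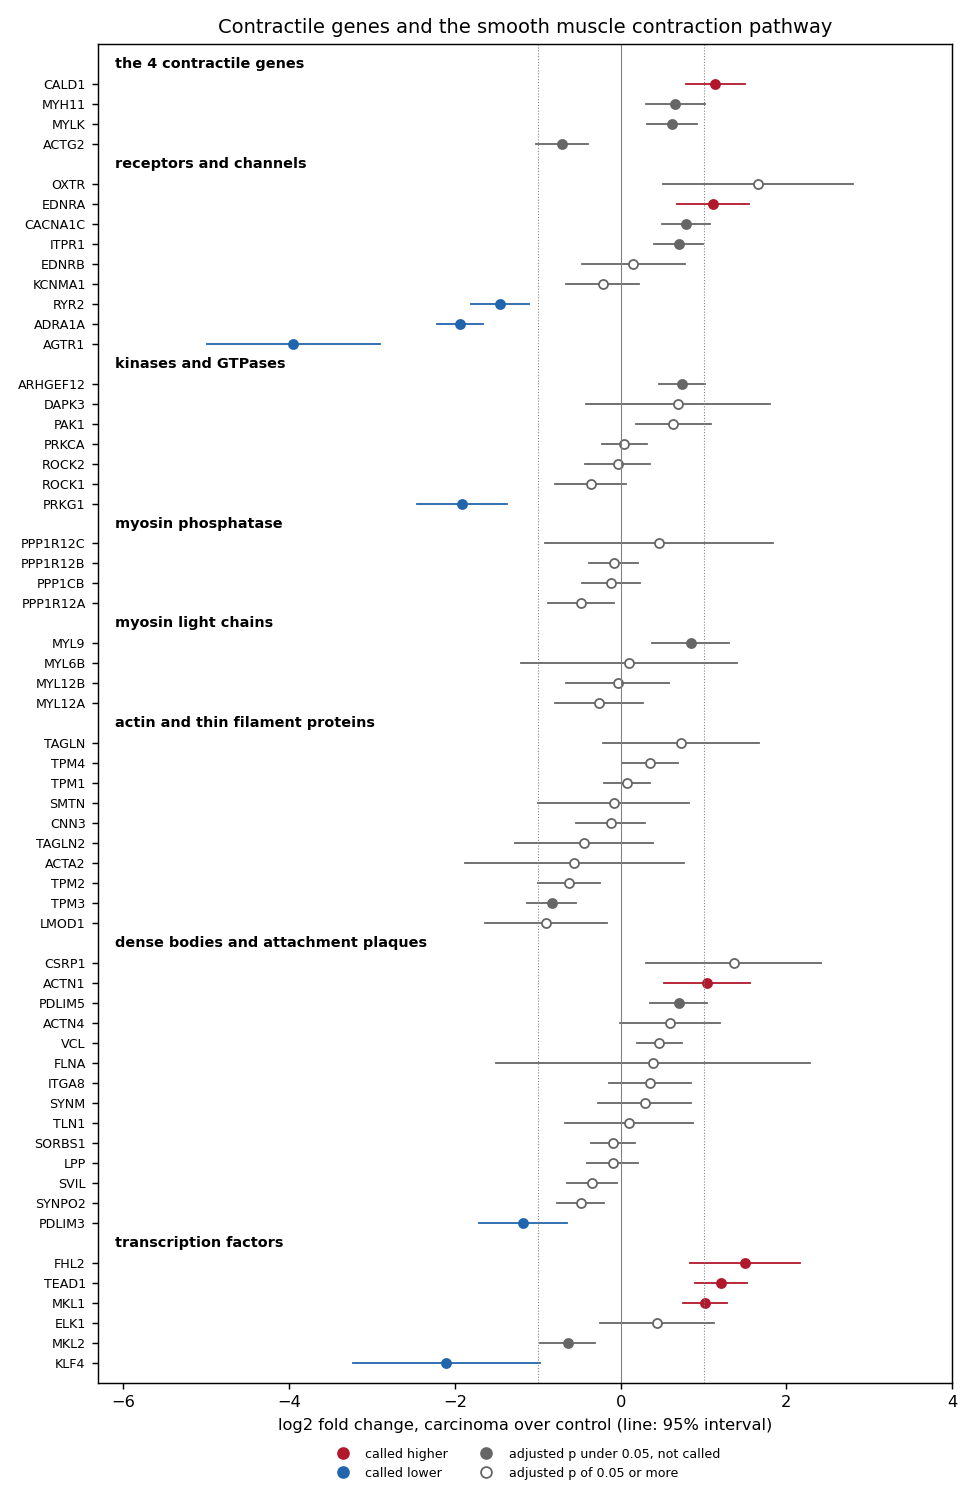
Log2 fold change of carcinoma over control (x axis) with 95% intervals for the 4 contractile genes and 54 genes of the smooth muscle contraction pathway, grouped by role (y axis). Red marks genes called higher, blue genes called lower, filled gray an adjusted p under 0.05 without a call and open gray the rest. The changes scatter to both sides, with a list median of 0.04.

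By the whole profile over the 4 libraries (Euclidean distance of log2 CPM centered on each gene's mean, among 8200 other genes with a symbol and at least 10 CPM on average), the nearest genes to CALD1 were PLCE1 at a distance of 0.0461, CLIC4 at 0.0790 and EDNRA at 0.0808. Those of MYH11 were MYLIP (0.0378), USP22 (0.0458) and NVL (0.0534). MYLK had CACNA1B (0.0310), FOXO3 (0.0475) and SLC20A2 (0.0488) as its nearest, and ACTG2 had PSMB9 (0.0415), CLDN8 (0.0556) and ACSL1 (0.0797). Among themselves the contractile genes lay farther apart, from 0.144 between MYH11 and MYLK to 1.87 between CALD1 and ACTG2. With 4 libraries that share dogs and tissue, such closeness is a description and says nothing of shared function.

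Markers of the cell types that hold or surround contractile cells were set beside these values. The 4 contractile genes summed to 785 and 831 CPM in control and 1290 and 1303 CPM in carcinoma. The 10 measured genes of the myoepithelial and basal epithelial list summed to 1101 and 1188 CPM in control and 1091 and 1356 CPM in carcinoma, and the groups overlapped. In that list 1 of 10 was called higher, beside 4.62% of all genes, TRIM29 (log2 fold change 1.42, edgeR adjusted p = 0.0460), and none lower, while by the adjusted p alone ITGA6 was lower. With the replicate block 3 were higher and 1 lower, and without C1, without T2 or with library totals none was higher. KRT5, a keratin of myoepithelial cells, was 164 and 259 CPM in C1 and C2 and 353 and 572 CPM in T1 and T2 (log2 fold change 1.13, edgeR adjusted p = 0.0884, or 2.55e-51 with the replicate block). COL17A1, a collagen of basal cell attachment, went in the other direction, from 47.8 and 75.6 CPM in C1 and C2 to 22.9 and 37.5 CPM in T1 and T2 (log2 fold change −1.05, edgeR adjusted p = 0.118, or 3.69e-23 and called lower with the block). TP63 (−0.42) and LAMA3 (−0.44) also lay below both controls in both carcinoma libraries and did not pass without the block. TRIM29, ITGA6, KRT5, COL17A1, TP63 and LAMA3 were named after their values were seen. The length given for KRT5 was 243126 bases, beside 4262 for the keratin gene KRT19. Whether the counts of KRT5, which enter the sum of this list, include reads of other genes was not tested.

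The markers of pericytes and vascular mural cells summed to 219 and 310 CPM in control and 151 and 239 CPM in carcinoma, with overlap. Of the 7 measured, PDGFRB, also named after its values were seen, was called lower and the other 6 were not called. With the replicate block CSPG4, named likewise, was called higher (log2 fold change 1.50, edgeR adjusted p = 2.76e-12). It was 2.54 and 8.58 CPM in C1 and C2 and 5.55 and 35.1 CPM in T1 and T2, with overlap. Without the block CSPG4 did not pass (edgeR adjusted p = 0.308). For the lists that follow, the share of all genes called lower was 5.24%. Blood endothelial markers summed to 729 and 744 CPM in control and 335 and 330 CPM in carcinoma, with 5 of 7 called lower. Fibroblast and myofibroblast markers summed to 10613 and 10593 CPM in control and 3465 and 4181 CPM in carcinoma, with 5 of 9 called lower. Luminal epithelial markers summed to 1127 and 1138 CPM in control and 619 and 744 CPM in carcinoma, with 3 of 7 called lower. Those called were ELF5, ESR1 and PGR, while EPCAM (log2 fold change −0.32) and FOXA1 (−0.83) were lower without passing. KRT19 (0.22) and GATA3 (0.23) were higher, also without passing, so the lower sum does not hold for every marker. Those that did not pass here passed with the block. These genes were named after their values were seen.

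Striated muscle markers had the largest gap of the 6 lists, with sums of 1989 and 3131 CPM in control and 43.2 and 69.3 CPM in carcinoma, with 11 of 12 called lower. Of these, 6 had no count in at least 1 carcinoma library, namely MB, MYL2, MYL3, MYLPF, TNNT3 and ACTN2. In no other marker list was a gene at 0 in any library. CALD1, MYH11 and MYLK thus rose in libraries where the summed markers of endothelium, fibroblasts and luminal epithelium were lower, and ACTG2 fell there. The part of cell composition in the change of each gene was not tested.

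**Figure D5:**
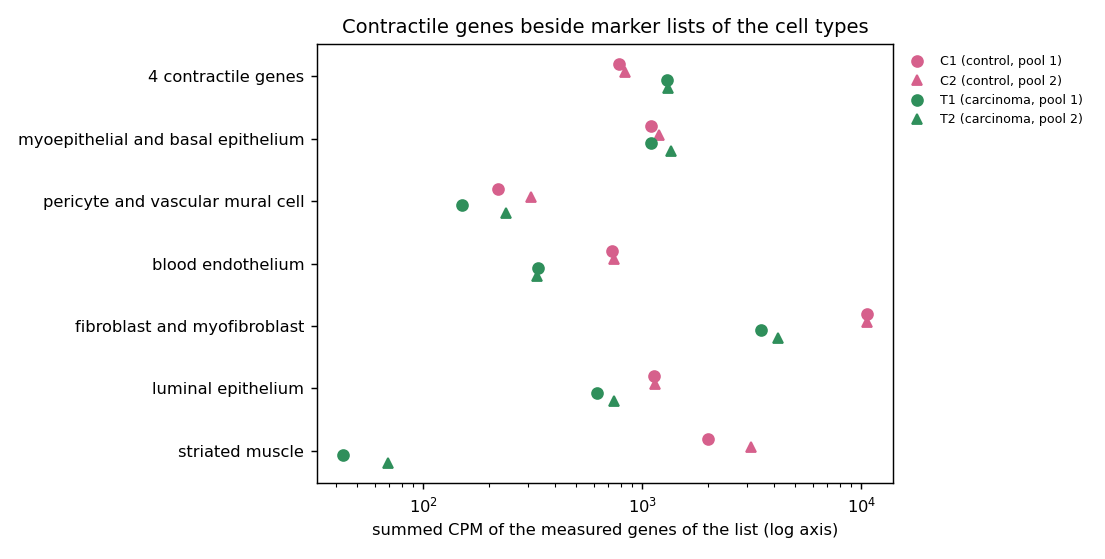
Summed CPM (x axis, log scale) of the 4 contractile genes and of the measured genes of 6 marker lists (y axis) in each library, with pink control and green carcinoma symbols that are round for pool 1 and triangular for pool 2. The contractile genes move right in carcinoma, from 785 and 831 to 1290 and 1303 CPM, the striated muscle, endothelial, fibroblast and luminal lists move left, and the myoepithelial and mural lists overlap.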

How the data were processed

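Total RNA of mammary ductal carcinoma and adjacent non-tumor tissue was sequenced in 4 libraries made with a stranded total RNA kit. The authors deposited whole-number counts per gene, without normalization, and a length per gene. TopHat2 and HTSeq at default settings are named in the study's methods, whereas STAR, featureCounts, FastQC and DESeq2 are named in the submitters' processing notes. Neither source used here states the genome build, and no coordinates are printed.

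The counts were tested with edgeR 4.0.16 under R 4.3.3 (TMM, filterByExpr, quasi-likelihood test, prior count of 2 for log2 CPM). The size of each log2 fold change over the root of its F statistic gave the standard error. Alternatives were DESeq2 1.42.0, the pool as a replicate block (alone and in DESeq2), RLE factors, library totals, at least 10 counts in every library, no filter, and leaving out each library. Figures were drawn with matplotlib 3.10.9. The scripts were tested on simulated data.

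By the study's methods a pool number stands for the same dogs in both tissues. Across genes, the departures of libraries with one number from their tissue's mean had a correlation of 0.782. With this block the common dispersion went from 0.0508 to 0.00216. Replicates differed by more than counting error (chi-square per degree of freedom 46.0 between controls and 31.7 between carcinomas).

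The genes and lists were chosen with earlier results of these data known. Named one by one were the 4 genes, their measured paralogs, up to 4 pathway genes of each role with the smallest p, and the 3 nearest profiles of each of the 4 genes. One pathway gene that this rule names is not reported here, though counts over the list include it. Where no read was counted, a level of up to 3 counts is allowed, which is 0.102, 0.695, 0.0858 and 0.892 CPM in C1, C2, T1 and T2.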

Additional observations from a re-analysis of the deposited data

Results flagged for a closer look

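For 2 results, among the 4 genes, their ratios and the genes chosen by the naming rule, the pools pointed in opposite directions, each resting on 1 library per tissue and pool, and the difference between the pools was not tested. The log2 ratio of MYH11 to MYLK changed by −0.08 in pool 1 and 0.15 in pool 2. MYL6B, a light chain gene with 47 and 43 counts in C2 and T2, had a log2 ratio of carcinoma to control of −0.07 in pool 1 and 0.23 in pool 2.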

How the results depend on the processing

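The log2 fold change of CALD1 ranged from 0.98 to 1.25 when a library was left out, and it stayed called in the other fits. Of the 4 contractile genes, 4 had an adjusted p under 0.05, against 1 (CALD1) with library totals and 1 each time a library was left out. Genes called higher numbered 521, against 800 with the replicate block and 342 to 509 with a library left out. The replicate block changed the call of none of the 4 genes, and all 4 passed with it, with DESeq2 and with RLE factors. Within single pools, as carcinoma minus control without a fitted block, the log2 ratio of MYH11 to MYLK changed by −0.080 in pool 1 and 0.15 in pool 2. That of MYH11 to ACTG2 changed by 1.24 and 1.48, and that of MYLK to ACTG2 by 1.32 and 1.33, in the same order. MYL12B, MYL6B and PPP1R12C turned direction. The log2 fold change of MYL12B was 0.0071 with library totals. With a library left out it ranged from −0.31 to 0.17 for MYL12B, −0.26 to 0.97 for PPP1R12C and −0.48 to 0.58 for MYL6B. The causes were not tested. The depth of pool 2 limits genes with few counts, and 2 pools a tissue limit every test.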
